A study of Mus musculus with 12 samples.

Results

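The genes that distinguished the atrioventricular canal (AVC) from the ventricle of the mouse heart at embryonic day 9 (E9) were described from 6 of the 12 arrays of the series. The 3 arrays labelled AVC E9 were set against the 3 arrays labelled LV E9. Both groups were total RNA from tissue dissected out of mouse embryos, the AVC in one case and the primary ventricle in the other. No strain, genotype or treatment is given, so nothing but the region is stated to differ between the groups. The 3 AVC E10 and 3 LV E10 arrays, from the same regions 1 day later, were used as a second set of samples. They also entered the estimate of spread behind the E9 test. All arrays were Illumina Mouse WG-6 v2 bead arrays. Each value is an intensity, the brightness of a probe after background subtraction, on a linear scale.

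The early heart tube is divided into chambers and the slower segments between them. In the AVC, the myocardium keeps a primitive, slowly conducting character under the T-box repressors Tbx2 and Tbx3. It secretes BMP and TGF-beta ligands, to which the overlying endocardium responds by losing its junctions and entering the cardiac jelly as mesenchyme. The resulting cushions later give rise to the mitral and tricuspid valves. The chamber myocardium beside the canal expresses natriuretic peptide and fast-conduction genes and forms trabeculae.

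The study took E9 as a stage ahead of this mesenchymal transition, so the contrast asks which genes already set the canal apart. A dissected segment holds myocardium, endocardium and blood together, and in such bulk RNA fewer cells of a type and less RNA per cell cannot be told apart. No source states whether replicates were separate litters or pools, and p-values therefore measure the spread between these samples. Precision is limited by the number of arrays. Of the probes, 36.7% to 41.0% were above background on an E9 array, and replicate 2 of AVC E9 correlated better with replicate 1 of AVC E10 (0.979) than with its own group (0.970 and 0.965, across 8340 genes). Replicate 1 of LV E10 likewise correlated better with the LV E9 arrays (0.955, 0.969 and 0.957) than with its own group (0.941 and 0.926).

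Marker genes of the tissues that a dissected segment could hold were summed first. The canal genes Tbx2, Tbx3, Bmp2, Rspo3, Msx2 and Cacna1g added up to 1939 to 3152 in the AVC against 229 to 497 in the LV, whereas 7 ventricular genes added up to 29678 to 42264 in the AVC against 65600.2 to 73825 in the LV. Neither pair of groups overlapped, and both sums lay in the direction of the labels. The study itself reported Tbx2, Tbx3 and Rspo3 for the AVC and Nppa for the chambers from these samples. The direction of the sums is therefore a description and no independent check of the labels. Of the defining markers, Msx2 of the canal, Hcn4 of the sinus venosus, Bmp10 of trabeculae and Kdr of the endothelium were not above background on any E9 array. General myocardial genes were at similar sums, 55500.0 to 61643 in the AVC against 59811 to 63584 in the LV. Atrial and sinus venosus markers summed to 28264 to 32726 in the AVC against 18902 to 22827 in the LV, higher in the AVC. Nearly all of that sum was Myl7, at 27916, 32324 and 27900 in the AVC and 22200, 18807 and 22774 in the LV. Myl7 did not pass in limma (adjusted p = 0.495). Endothelial markers overlapped (2384 to 3527 in the AVC against 3073 to 3548 in the LV), as did epicardial ones (487 to 677 in the AVC against 174 to 515 in the LV). Erythroid markers, led by embryonic globins, were at 79927 to 94097 in the AVC against 99562 to 115129 in the LV. The 4 neural crest markers that were measured, Sox10, Foxd3, Pax3 and Sox2, were below background on every E9 array, as were Ptprc and Csf1r of white blood cells. At E10 the Sox10 mean was 36.4 in the AVC and 0.78 in the LV without passing in limma (adjusted p = 0.0619). Those of Foxd3, Pax3 and Sox2 in the AVC were 0.98, -8.48 and 7.90. Csf1r had E10 means of 94.7 and 26.6 (adjusted p = 0.323), and Ptprc of 1.44 and -8.36. Of the endoderm markers, Alb, Epcam and Foxa2 were below background on every E9 array, whereas Ttr and Cdh1 were above it on all 6. In a list of 21 endoderm and hepatic genes none passed in limma, the median was 0.42 and the sums overlapped (4133 to 6016 in the AVC against 1974 to 4236 in the LV). The platelet gene Pf4 was at 1122, 1407 and 498 in the canal and 1779, 2999 and 2664 in the ventricle.

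**Figure D1:**
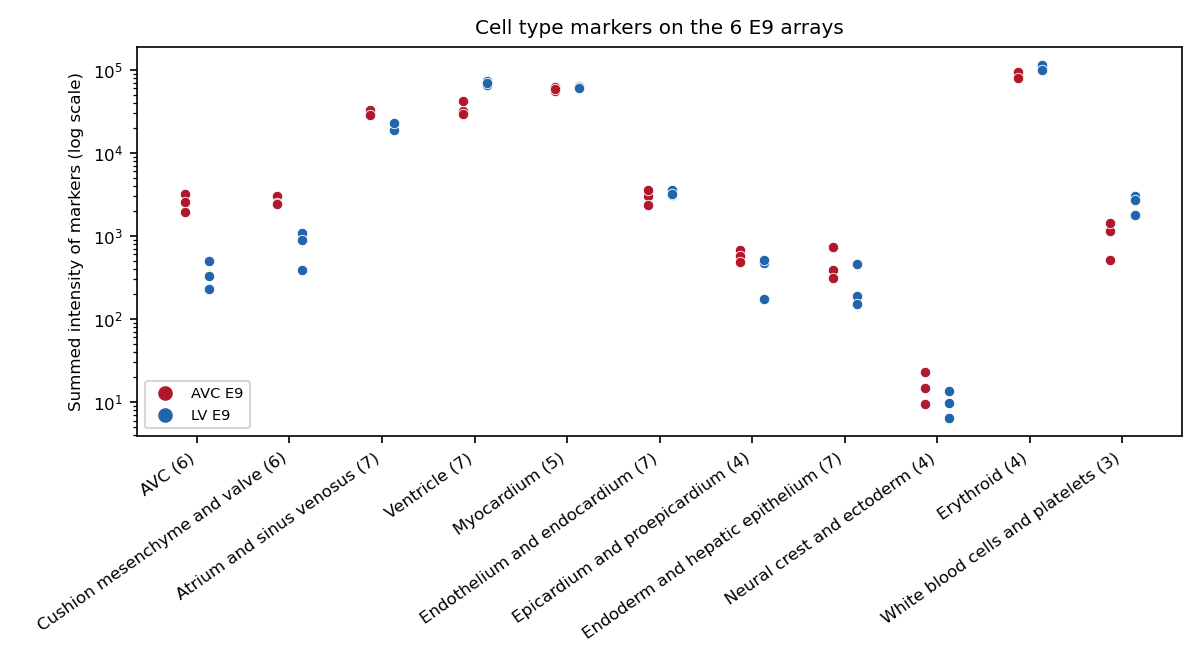
Summed intensity of defining marker genes (log scale) on each of the 6 E9 arrays, with the number of measured markers in parentheses, AVC arrays in red and LV arrays in blue. The canal and ventricular sums separate the groups in opposite directions, the endothelial and myocardial sums overlap, and neural crest markers sum to under 23 on every array.

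Markers of cushion mesenchyme bear on the stage. Periostin (Postn), a matrix protein of formed cushions and valves, was not above background on any of the 6 arrays. Sox9, a transcription factor of cushion progenitors, was however abundant, at 2939, 2276 and 1942 in the canal and 621, 801 and 299 in the ventricle. The groups did not overlap, but the difference missed the threshold (log2 difference 2.15 ± 0.42 SE, adjusted p = 0.0625). Snai1, the repressor of cell junctions, was at 203, 213 and 168 against 46.9, 30.6 and 62.9 and passed (log2 difference 2.11 ± 0.28 SE, adjusted p = 0.0173). Twist1 (1.61 ± 0.27), the mesenchymal receptor gene Pdgfra (1.57 ± 0.27) and Meox1 (above background on 1 AVC array) also rose. Of 22 measured members of the cushion mesenchyme list these 4 rose (0 to 3 with 1 array left out, 0 of them without replicate 1 of the AVC), 0 fell and the median log2 difference was 1.01. Has2, which makes the hyaluronan of the jelly, was at 1084, 751 and 1102 against 351, 199 and 254 (log2 difference 1.89 ± 0.37 SE, adjusted p = 0.0627). Of the other fixed markers, Prrx1 was above background on 3 AVC and 0 LV arrays at E9, Scx on 3 and 1, Acan on 2 and 1 and Lum on 2 and 3. None of them passed in limma. Thus 4 genes of the mesenchymal programme rose on the AVC arrays labelled E9, and of the fixed cushion markers only Postn was detected on no E9 array.

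A limma fit of log2 intensity called 195 of 19057 genes at an adjusted p under 0.05, which is 1.02% of the genes tested. Of these, 163 were higher in the AVC (0.855% of genes) and 32 were lower (0.168%). After quantile normalization the split was 97 higher and 52 lower. Of the genes called higher, 14 were in the published or textbook AVC and AVC myocardium lists and 149 were in neither. The published list was chosen by the study on these samples and is no independent evidence of its direction. Above background on all 6 E9 arrays were 115 of the higher genes, with a median log2 difference of 1.17 and a range of 0.29 to 4.20. Of these, 21 differed at least 4-fold and 40 less than 2-fold. The corresponding 23 lower genes had a median of -1.26, and 3 of them differed at least 4-fold. Genes above background in an E9 group numbered 9495, of which 168 (1.77%) were called. Their median was 0.076, and 60.1% of them had a positive difference. Among all genes tested, the arrays of the groups did not overlap for 17.1%, 11.8% higher and 5.31% lower in the AVC. With 1 array left out, the count was 59, 117 or 110 without replicates 1, 2 or 3 of the AVC and 159, 81 or 82 without those of the LV. A fit of the E9 arrays alone called 83 genes, of which 37 were among the 195, and none in the TGF-beta, Notch, insulin-like growth factor, lysophospholipid, small GTPase or endothelial lists.

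**Figure D2:**
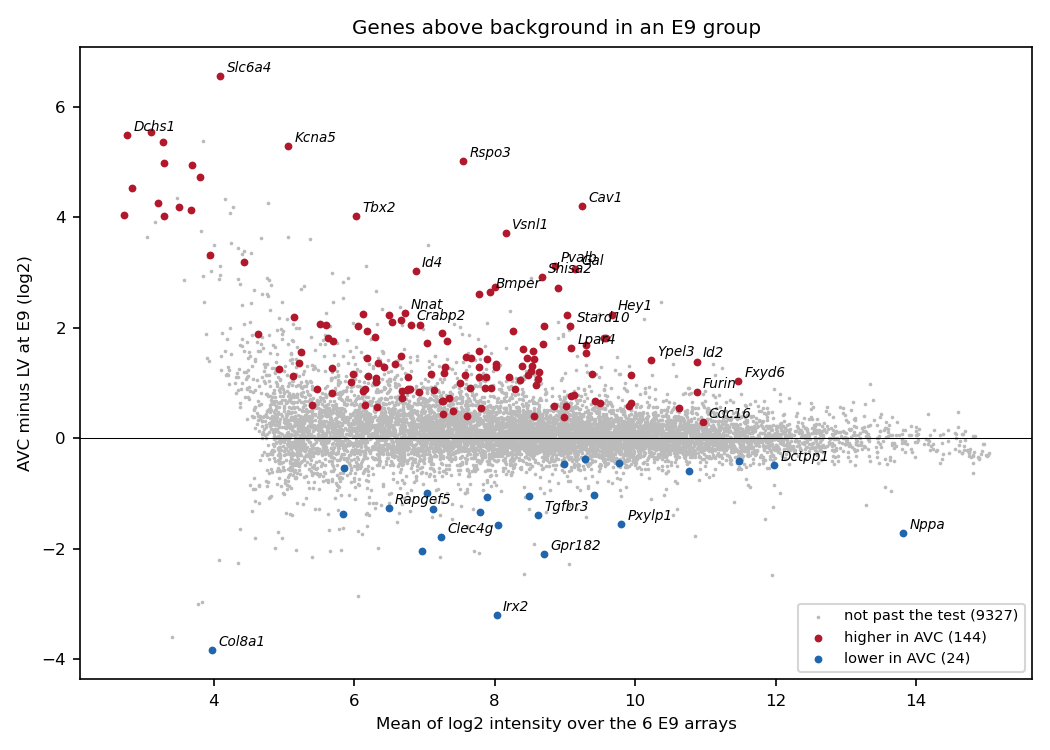
Each point is 1 of the 9495 genes detected by all 3 arrays of an E9 group, by its mean log2 intensity over the 6 E9 arrays and its difference between AVC and LV on the log2 scale. Genes past the adjusted threshold are coloured, 144 higher in the AVC in red and 24 lower in blue. The most positive calls include Slc6a4 at low and Cav1 at high mean intensity.

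A small core passed in every refit across all genes. Of the 195 called genes, 33 passed in all 6 fits that left out 1 array, and 9 of those also passed in all 9 other alternative fits. The 9 were Cav1, Id4, Shisa2, Nnat, Crabp2, Id2, Inha, Rmdn2 and Rnf215, all higher in the AVC. Id2, Inha, Rmdn2 and Rnf215 differed by less than the 4-fold that the study required. Rmdn2, a regulator of microtubule dynamics, had intensities of 565, 483 and 539.9 in the canal and 242, 202 and 199 in the ventricle (log2 difference 1.30 ± 0.08 SE, adjusted p = 0.00061). Its groups lay far apart relative to their spread. Inha, the alpha subunit of the activin antagonist inhibin, was at 69.8, 64.7 and 60.1 and was not above background in the LV, so the AVC was at least 2.41-fold higher (adjusted p = 0.00764). Such a bound sets the mean of the detected group against the lowest detectable signal of the other. Rnf215, which encodes a RING finger protein, differed little in size but with little scatter, at 158, 146 and 135 against 84.7, 77.4 and 76.8 (log2 difference 0.87 ± 0.07 SE, adjusted p = 0.00153).

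Genes usually associated with neurons and secretory cells were read as a list. Of 42 measured members of this neuronal-type list, 10 rose, 0 fell and 32 did not pass (with 1 array left out, 3 to 5 rose). Of all genes tested, 0.855% rose. The median over all 42 was 0.76, where that of all genes tested lay at 0. Only 20 members were above background on the 3 arrays of an E9 group, some of them in the AVC alone. The list was assembled with results of these data known, so its count and direction are a description. Genes that define differentiated neurons, such as the neurofilaments Nefl and Nefm, Elavl3, Snap25, Stmn2 and chromogranin A (Chga), were not above background on any E9 array. Of 16 measured genes of a neural crest and neural ectoderm list, 12 were above background on no E9 array and none passed in limma, with a median of 0.11. Their summed intensity was 2127 to 2561 in the AVC against 1373 to 2093 in the LV without overlap, carried by Ednrb, Nes and Hoxb2. Its part in the neuronal-type values was not tested.

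Vsnl1, a calcium sensor protein of neurons and of the atrial and canal myocardium, was at 1099, 968 and 1037 in the canal and 76.4, 102 and 63.4 in the ventricle (log2 difference 3.71 ± 0.52 SE, adjusted p = 0.0218). Pvalb, which encodes the calcium-buffering parvalbumin, was at 1052, 1795 and 1343 against 169, 116 and 196 (log2 difference 3.12 ± 0.40 SE, adjusted p = 0.0164). For the neuropeptide galanin, Gal, every AVC array (1267, 2044 and 1681) exceeded every LV array (271, 125 and 221). All 3 genes were above background in both regions. Eef1a2, the translation elongation factor isoform of neurons and muscle, followed the same pattern (660.1, 733 and 608 against 139, 68.9 and 102; log2 difference 2.74 ± 0.50 SE, adjusted p = 0.0465). Nnat, an imprinted gene for a small endoplasmic reticulum protein, was at 264, 209.6 and 222 against 51.2, 52.7 and 41.6 (log2 difference 2.26 ± 0.14 SE, adjusted p = 0.00061). Among 20 measured imprinted genes Nnat alone passed. Tulp1 (2.25 ± 0.33), known from photoreceptors, the ubiquitin hydrolase gene Uchl1 (1.45 ± 0.24) and Trnp1 (at least 3.68-fold) rose as well. Syt1, the calcium sensor of vesicle release, was above background on the 3 AVC arrays only (61.1, 35.4 and 59.2) without passing the test (adjusted p = 0.354).

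Adhesion genes of the same list included Adam23, a disintegrin family protein of neurons, which was at 102, 85.3 and 41.3 in the canal and not above background in the LV, at least 2.66-fold higher (adjusted p = 0.0279). Ncam1, the neural cell adhesion molecule, was at 200.5, 429.7 and 91.1 against 47.8, 26.4 and 24.5, with groups that did not overlap and a wide spread in the AVC (adjusted p = 0.0572). Further called genes outside the list are best known from neurites and were picked after their values were seen. St8sia2, which adds polysialic acid to NCAM, was at 46.2, 41.0 and 31.8 in the canal and not above background in the LV, at least 1.46-fold higher (adjusted p = 0.0385). The actin-binding drebrin gene Dbn1 was at 154, 155 and 179 against 95.2, 96.5 and 81.4 (log2 difference 0.84 ± 0.12 SE, adjusted p = 0.0244). Tubb4a, a beta tubulin of neurons, rose by 1.45 ± 0.26, the immunoglobulin adhesion gene Igsf9 by 1.75 ± 0.30 (0.12 by its other detected probe) and the cortexin gene Ctxn1 by 1.35 ± 0.23. At E10 Adam23, St8sia2, Ncam1 (log2 difference 2.91) and Dbn1 (1.12) passed in the same direction (adjusted p = 0.0276, 0.0412, 0.0291 and 0.00606).

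Also higher in the canal were 3 genes for handling monoamines, named together after their values were seen. Slc6a4, the serotonin transporter, was at 148, 243 and 127 in the canal and not above background on any LV array, at least 6.19-fold higher (adjusted p = 0.0143). At E10 Slc6a4 was above background on 3 AVC and 2 LV arrays, with a log2 difference of 1.27 that did not pass in limma (adjusted p = 0.594). The difference between ages did not pass either (adjusted p = 0.469). Pnmt, the enzyme that turns noradrenaline into adrenaline, was at 223, 285 and 243 against 72.6, 42.2 and 70.4 (log2 difference 2.05 ± 0.34 SE, adjusted p = 0.0339). Maob, a mitochondrial monoamine oxidase, was at 156, 212 and 124 against 77.1, 77.6 and 68.3 (log2 difference 1.11 ± 0.18 SE, adjusted p = 0.0339).

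**Figure D3:**
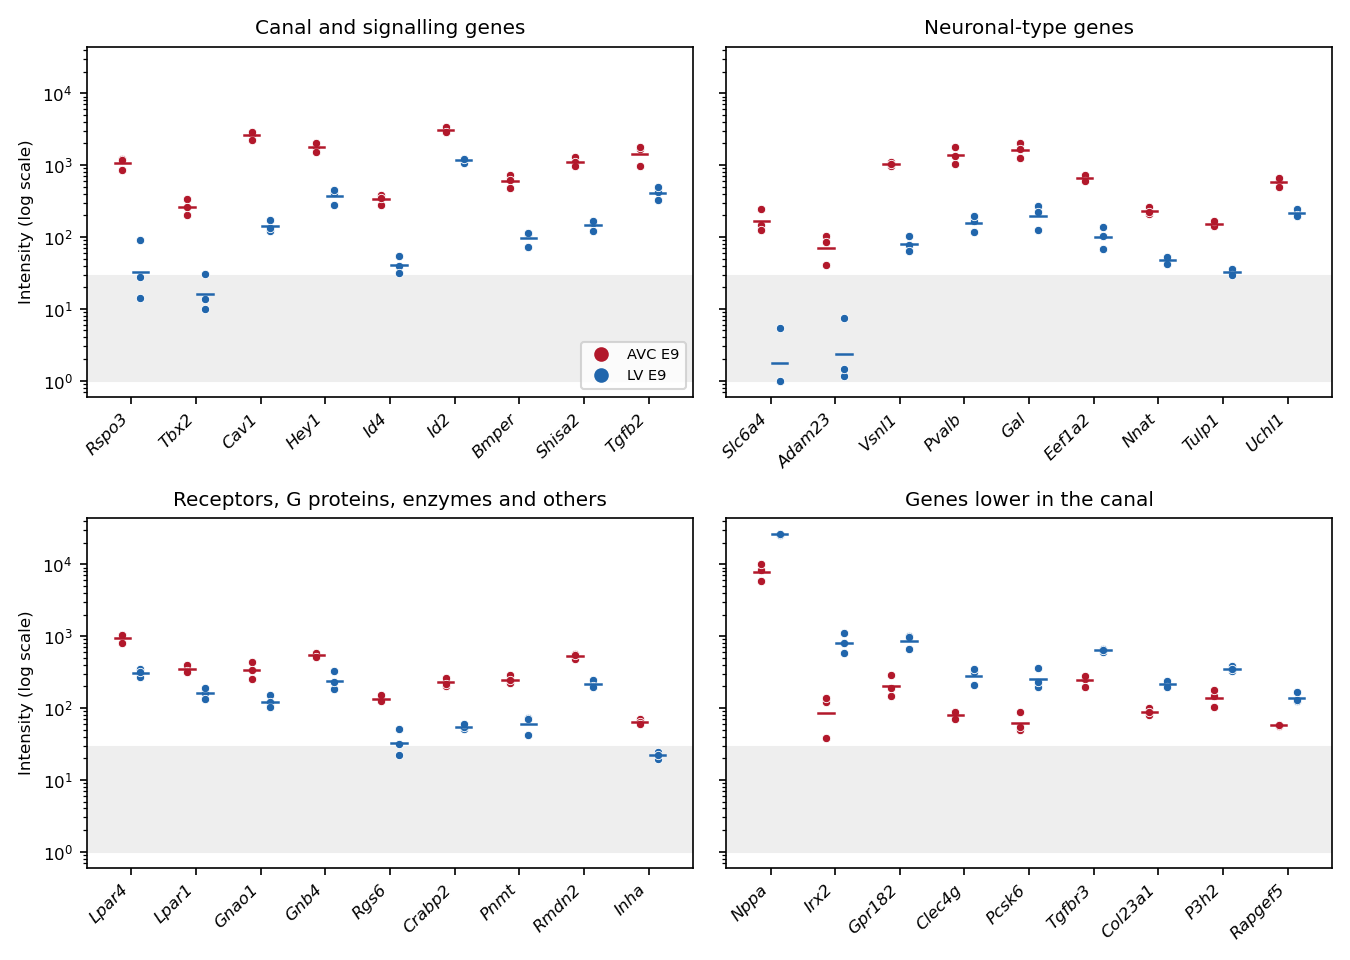
Intensity on each E9 array (log scale) for 36 genes, AVC in red and LV in blue, with a bar at the geometric mean of 3 arrays; values under 1 are drawn at 1 and the shaded band ends at the highest background limit of the E9 arrays. In all 36 genes the 3 AVC points lie entirely above, or in the last panel entirely below, the 3 LV points.

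Among BMP genes, targets, a modulator and the weakly detected ligand Bmp2 rose in the canal and no receptor gene passed. BMP ligands signal through receptor serine kinases to SMAD proteins, which switch on Id and Msx genes. Of 35 measured members of the BMP list 5 rose and 0 fell (3 to 5 rose with 1 array left out), and the median was 0.27. The helix-loop-helix inhibitor gene Id4 was at 384, 277 and 354 in the canal and 54.3, 40.1 and 31.9 in the ventricle (log2 difference 3.03 ± 0.22 SE, adjusted p = 0.00152). Id2 was at 2919, 3392 and 2847 against 1233, 1054 and 1214 (log2 difference 1.39 ± 0.13 SE, adjusted p = 0.00486). Both separated the groups without overlap, and Id1 (1.21) and Id3 (1.25) lay in the same direction without passing (adjusted p = 0.0851 and 0.105).

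Bmper, a secreted protein that binds BMPs, was at 740.2, 625 and 486 against 110.2, 72.9 and 115 (log2 difference 2.64 ± 0.26 SE, adjusted p = 0.00593), and Msx1 at 887, 1047 and 633 against 195, 184 and 240.2 (log2 difference 2.03 ± 0.25 SE, adjusted p = 0.0142). The ligand Bmp2 was weak, with 47.5, 17.3 and 32.3 on the AVC arrays, of which 2 exceeded background, and no LV array above it. It passed in limma (log2 difference 4.29 ± 0.59 SE, adjusted p = 0.0208), with LV values at or near the floor. The receptor genes Bmpr1a (0.20), Bmpr2 (0.05) and Acvr1 (0.47) did not pass. Bmpr1b was lower in the canal at 57.9, 9.29 and 27.5 against 191, 148 and 200.2, a log2 difference of -2.86 that missed the threshold (adjusted p = 0.0682).

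The GC-rich motif GGCGCC, which SMAD proteins of the BMP branch can bind, was searched on either strand in the 250 bases before each listed start (RefSeq, GRCm38.p6). It was present for 32 of the 118 genes called higher and above background that had a promoter in the table (27.1%), and for 20.0% of all 7752 such genes above background. Of the 5 called BMP genes, the Id4 and Id2 promoters held it. They are shown because these are the signalling targets among the genes that passed in every fit, and the capitals mark the motif. The match is of letters only.

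Id4, chr13:48260866-48261115, plus strand: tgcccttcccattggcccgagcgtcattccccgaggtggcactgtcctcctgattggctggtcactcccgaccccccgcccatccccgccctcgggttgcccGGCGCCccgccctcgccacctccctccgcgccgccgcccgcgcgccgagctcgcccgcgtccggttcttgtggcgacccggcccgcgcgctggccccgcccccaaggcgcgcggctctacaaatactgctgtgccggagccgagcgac

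Id2, chr12:25096093-25096342, minus strand: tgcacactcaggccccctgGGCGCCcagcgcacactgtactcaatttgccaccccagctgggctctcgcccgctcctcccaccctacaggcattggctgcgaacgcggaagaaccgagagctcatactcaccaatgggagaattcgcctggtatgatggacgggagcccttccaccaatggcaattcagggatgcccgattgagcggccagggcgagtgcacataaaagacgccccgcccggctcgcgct

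In the TGF-beta list, ligand, processing enzymes and co-receptor moved in different directions. Tgfb2, the ligand of the cushion region, was at 1679, 986 and 1799 against 424, 327 and 494 (log2 difference 1.81 ± 0.25 SE, adjusted p = 0.021), whereas Tgfbr3, the co-receptor betaglycan that presents it, was at 257, 198 and 282 against 670.4, 604 and 648 (log2 difference -1.40 ± 0.21 SE, adjusted p = 0.0253). The 2 convertases that cut TGF-beta family precursors were also opposed. Furin was at 2805, 2183 and 2590.4 in the canal and 1418, 1309.5 and 1516 in the ventricle (log2 difference 0.83 ± 0.10 SE, adjusted p = 0.0144), and Pcsk6 at 87.2, 50.2 and 53.7 against 360.2, 194 and 233 (log2 difference -2.04 ± 0.33 SE, adjusted p = 0.033). Thus 2 of 18 members rose and 2 fell (1 to 2 and 0 to 1 with 1 array left out), and the signalling receptors Tgfbr1 (0.21) and Tgfbr2 (-0.17) did not pass.

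In the Wnt list 2 of 37 members rose (1 to 2 with 1 array left out) and the median was 0.45. Rspo3, a secreted amplifier of Wnt signalling, was at 1210.2, 1167 and 861 against 90.1, 27.8 and 14.3 (log2 difference 5.02 ± 0.61 SE, adjusted p = 0.0142). Shisa2, which retains Wnt and FGF receptors inside the cell, was at 1296, 1114 and 978 against 158, 123 and 168 (log2 difference 2.92 ± 0.23 SE, adjusted p = 0.00179), so an amplifier and an inhibitor rose together. The ligand Wnt2 was at 2546, 3448 and 3346 against 597, 403 and 739, but its adjusted p was 0.0662. Porcn, the acyltransferase that Wnt ligands need for secretion and that was not in the list, was at 284, 218 and 275 against 141, 120.2 and 128 (log2 difference 0.99 ± 0.16 SE, adjusted p = 0.0324).

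Of 19 Notch members, Hey1 and Notch3 rose (0 to 1 with 1 array left out). Hey1, a Notch effector that bounds the canal, was at 1799, 2007 and 1516 against 406, 457 and 282 (log2 difference 2.24 ± 0.27 SE, adjusted p = 0.0143). Its relative Hey2, one of the ventricular markers, was at 283, 233 and 185 against 688, 432 and 591 (adjusted p = 0.137). Notch3 differed less (0.88 ± 0.15). Of 18 retinoic acid genes 2 rose (1 with any 1 array left out). Crabp2, which carries retinoic acid to its nuclear receptor, was at 205, 264 and 218 against 51.0, 54.5 and 59.1 (log2 difference 2.06 ± 0.25 SE, adjusted p = 0.0143), and Rarres1 was at least 2.83-fold higher. Igfbp7, a secreted binding protein, rose alone of 16 members of the insulin-like growth factor axis (1267, 1920.1 and 763 against 221, 173 and 168; log2 difference 2.73 ± 0.32 SE, adjusted p = 0.0134). Of the 23 FGF members none passed at an adjusted p under 0.05 in limma. Among the FGF-responsive transcription factors, Etv1, which the list did not hold, rose (1.57 ± 0.27), while Etv4 (1.83) and Etv5 (1.22) did not pass. The MAP kinase phosphatase gene Dusp4 was at 982, 1134 and 1304 against 251, 244 and 229 (log2 difference 2.23 ± 0.30 SE, adjusted p = 0.0187).

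**Figure D4:**
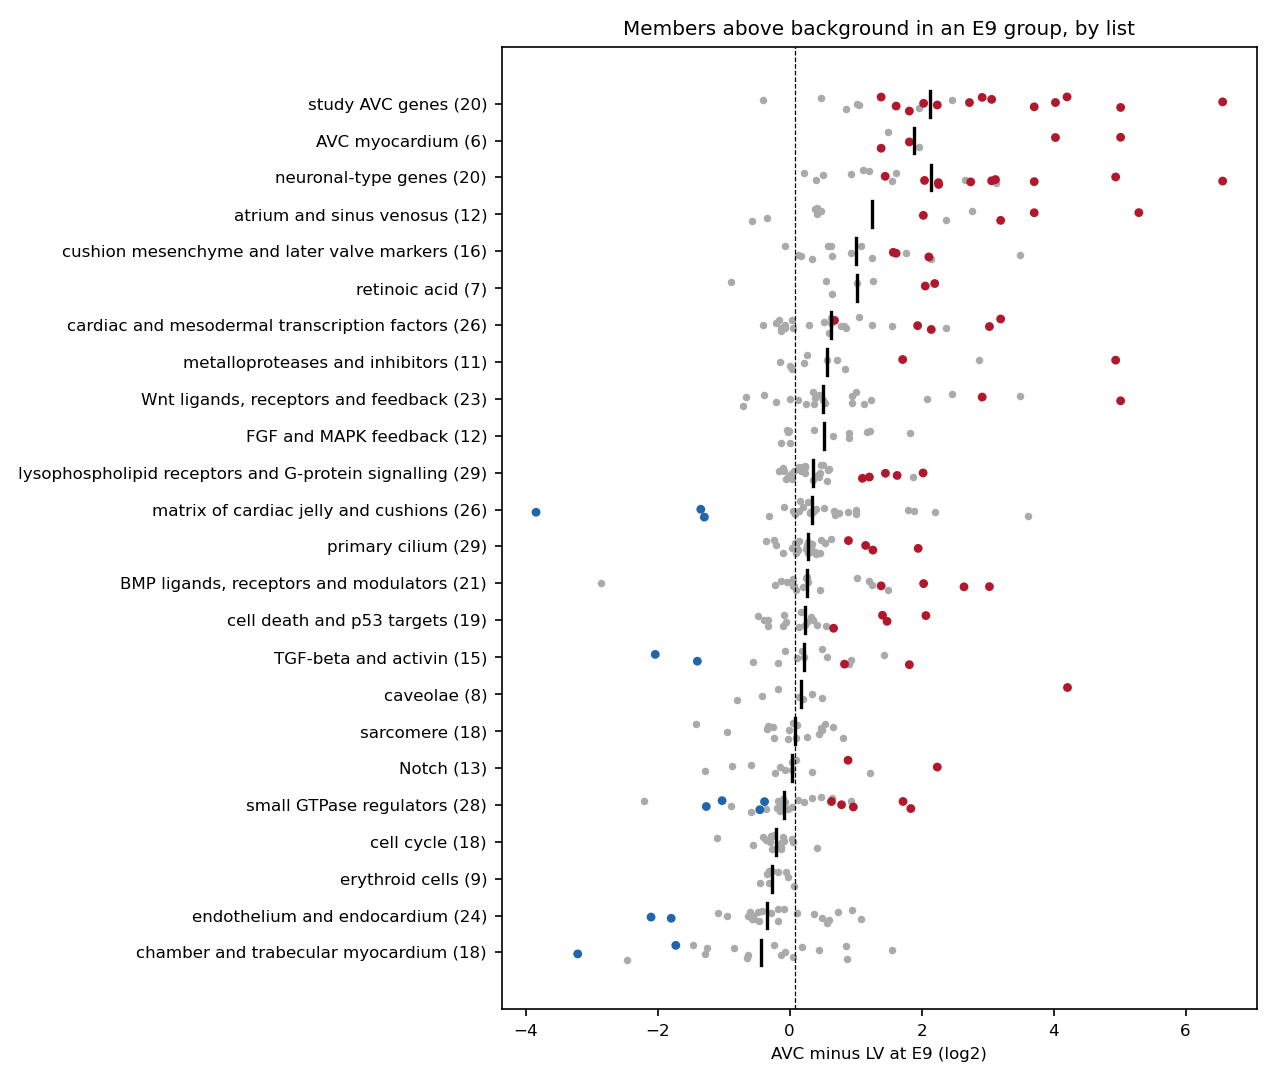
Difference between AVC and LV at E9 on the log2 scale for the members of 24 gene lists that were above background in an E9 group (their number in parentheses). Red and blue points passed the test, black bars are list medians and the dashed line is the median of all 9495 such genes, 0.076; vertical scatter within a list has no meaning. Neuronal-type genes lie to the right of 0, where members detected in the AVC alone must lie, and the endothelial and chamber lists have medians left of it.

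Receptors for the lipid mediator lysophosphatidic acid and G-protein genes were among the called genes, and a list was drawn up around them after the calls had been seen. Of 39 measured members 5 rose and 1, below background in both groups, fell. With 1 array left out 1 to 4 rose, and in a fit of the E9 arrays alone none of the 39 passed in limma. The receptor gene Lpar4 was at 1039, 1038 and 812 in the canal and 347, 268 and 319 in the ventricle (log2 difference 1.63 ± 0.14 SE, adjusted p = 0.0032), with narrow spreads. Its relative Lpar1 was at 393, 330.5 and 317 against 161, 136 and 190.2 (log2 difference 1.10 ± 0.18 SE, adjusted p = 0.0332). Gnao1, the alpha subunit of the inhibitory protein Go, was at 441, 256 and 338 against 151, 120.2 and 103 (log2 difference 1.45 ± 0.23 SE, adjusted p = 0.0305). The beta subunit gene Gnb4 rose by a log2 difference of 1.21 ± 0.20, and Rgs6, which shortens Gi and Go signals and damps pacemaker responses, by 2.02 ± 0.33. The orphan receptor gene Gpr85, outside the list, also rose (1.91 ± 0.32).

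Regulators of small GTPases changed in both directions, again in a list drawn up after the calls. Of 33 members 5 rose and 4 fell, and the median was -0.07; with 1 array left out 1 to 3 rose and 2 to 4 fell. Rapgef5, an exchange factor that activates Rap, was at 58.8, 56.7 and 58.8 in the AVC and 165, 126 and 131 in the LV (log2 difference -1.26 ± 0.10 SE, adjusted p = 0.00202). Rap1gap2, which switches Rap1 off, was at 283, 192 and 245 against 97.6, 61.2 and 62.7 (log2 difference 1.72 ± 0.20 SE, adjusted p = 0.0115), although the mean over all its probes had a log2 difference of -0.11. The Ras brake Rasa1 rose (0.63 ± 0.09) and the related Rasa3 fell (-0.45 ± 0.08), both by little. The small GTPase genes Diras2 (1.84 ± 0.29) and Rhou (0.79 ± 0.13) were higher in the canal.

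Among 30 cardiac and mesodermal transcription factors 5 rose and 0 fell (1 to 3 rose with 1 array left out). Nr2f2, a determinant of atrial identity, was at 76.5, 49.9 and 73.4 and not above background on any LV array, at least 2.44-fold higher. The SRY-box factors Sox4 and Sox5 were at 704, 736 and 414 against 189.8, 128 and 156 (log2 difference 1.94 ± 0.28 SE, adjusted p = 0.0241) and 255, 245 and 154 against 68.9, 44.8 and 35.9 (log2 difference 2.15 ± 0.32 SE, adjusted p = 0.0243). Other detected probes of Sox4 and Sox5 had log2 differences of 0.43 and 1.94. Foxp1 differed less (0.68 ± 0.12), and the remaining member that rose was Id4, given above with the BMP genes. Gata3, outside the list, was at 201, 133 and 179.6 against 60.0, 61.9 and 59.8 (log2 difference 1.48 ± 0.25 SE, adjusted p = 0.0339), whereas the cardiac factors Gata4 (0.83), Gata5 (0.85) and Gata6 (0.62) did not pass. The canal repressors Tbx2 and Tbx3 are also outside this list. Tbx2 was at 341, 202 and 262 against 30.6, 9.99 and 13.6 (log2 difference 4.03 ± 0.65 SE, adjusted p = 0.0324), while Tbx3, at 1520.3, 553 and 1412 against 365, 188 and 289, varied widely between AVC arrays and did not pass (adjusted p = 0.188). None of the 24 patterning and homeobox genes passed at an adjusted p under 0.05 in limma.

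Some atrial and sinus venosus genes were also higher. The sum of their markers given above was nearly all Myl7. Of 17 members 4 rose (1 to 3 with 1 array left out). They were Vsnl1, Nr2f2, the atrial potassium channel gene Kcna5 (at 179, 172 and 298, at least 7.79-fold) and the lipid transfer protein gene Stard10. Stard10 was at 1108, 1267 and 928 against 346, 234 and 238 (log2 difference 2.03 ± 0.19 SE, adjusted p = 0.00486). The widely used atrial light chain genes Myl7 (0.47, groups without overlap) and Myl4 (-0.35) did not pass. Of the other markers, Shox2 was above background on 3 AVC and 0 LV arrays (log2 difference 2.77) and Sln on 1 and 0 (4.38). Tbx18 lay at -0.51, and none of these passed at E9. At E10 Shox2 passed in limma (5.26, adjusted p = 0.0375) and Sln did not (5.99, adjusted p = 0.0825). How far atrial tissue within the dissection carried these differences was not tested.

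Cav1, the main caveolar coat protein, was at 2698, 2883 and 2251 against 169.8, 123 and 134 (log2 difference 4.20 ± 0.32 SE, adjusted p = 0.00153), the largest difference among genes above background on all 6 E9 arrays. The other caveolar genes did not pass, with Cavin1 at -0.18, Cavin2 at -0.80, Cavin3 at 0.34 and Ehd2 at 0.20 on the log2 scale, and Cav1 was the only one of 10 that passed. Dchs1, a giant cadherin of planar polarity, was at 54.2, 49.1 and 35.7 in the canal and not above background on the 3 LV arrays, at least 1.70-fold higher (adjusted p = 0.00061). Itgb5, an integrin subunit that binds vitronectin, was at 1236, 1027 and 982 against 431, 305 and 388 (log2 difference 1.54 ± 0.20 SE, adjusted p = 0.0176).

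Of 34 matrix genes 0 rose and 3 fell, while the median was 0.38 (0 to 3 fell with 1 array left out). Col23a1, a membrane-anchored collagen, was at 80.2, 99.8 and 89.1 in the AVC and 219, 240.2 and 199 in the LV (log2 difference -1.29 ± 0.16 SE, adjusted p = 0.0156). P3h2, a prolyl hydroxylase that modifies collagens of basement membranes, was at 147, 102 and 178 against 382, 327 and 353 (log2 difference -1.35 ± 0.20 SE, adjusted p = 0.0241). Col8a1, a short-chain collagen, was at 68.4, 57.8 and 53.9 in the LV and not above background in the AVC, at least 2.56-fold higher in the ventricle. Jelly genes lay in the opposite direction, with versican (Vcan) at 0.51, Hapln1 at 0.89 and tenascin C (Tnc) at 2.20, but none of these passed. Of the 26 matrix genes above background in an E9 group, 21 had positive differences and 13 had AVC arrays entirely above the LV arrays, against 60.1% and 20.0% of all such genes. The filter fixes the sign of members detected in the AVC or the LV alone.

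Genes of the primary cilium formed another list drawn up after the calls. Of the 37 measured members 4 rose and 0 fell (1 to 2 rose with 1 array left out), and the median was 0.28. Kif3a, a motor subunit that carries cargo up the cilium, was at 505, 584 and 501 against 303, 225 and 198 (log2 difference 1.15 ± 0.14 SE, adjusted p = 0.0142). The others were the transport gene Ift74 (1.26 ± 0.21), Bbs9 of the BBSome (0.89 ± 0.14) and Rsph9, a radial spoke gene of motile cilia (1.95 ± 0.30). Erythroid sums were lower on the AVC arrays, as given above, and the part of blood content in these shifts was not tested.

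Some genes that oppose growth or promote death rose. In a list of 24 such genes, also drawn up after the calls, 4 rose and 0 fell (0 to 2 rose with 1 array left out). Ypel3, a p53 target that restrains growth, was at 1933, 2169.8 and 1771 against 686, 781 and 743 (log2 difference 1.41 ± 0.20 SE, adjusted p = 0.0221). Bmf (2.06 ± 0.31) and Bbc3 (0.67 ± 0.12) encode BH3-only triggers of apoptosis, and Trp53inp1 (1.48 ± 0.22) a p53-induced stress protein. Of the 22 cell cycle genes none was called by limma, and the median was -0.20. The lowest was cyclin D2, Ccnd2 (-1.10 ± 0.36, adjusted p = 0.25).

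The genes that fell in the canal included markers of chamber myocardium and of endothelium. Nppa, the natriuretic peptide gene of chamber myocardium, was at 8264, 10166 and 5909 in the AVC and 26486, 25988 and 26091 in the LV (log2 difference -1.73 ± 0.21 SE, adjusted p = 0.0144), and Irx2, an Iroquois factor, at 121, 38.7 and 136 against 1101, 579 and 793 (log2 difference -3.21 ± 0.53 SE, adjusted p = 0.0339). These were the 2 of 21 chamber genes that passed (0 to 1 with 1 array left out). The transcriptional cofactor gene Cited1, at 124, 207 and 118 against 886, 810.3 and 712, did not (adjusted p = 0.0838).

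Of 29 endothelial and endocardial genes 2 fell (2 to 3 with 1 array left out), and the median was -0.42. Gpr182, an endothelial receptor, was at 291, 147 and 189.7 against 1005, 968 and 659 (log2 difference -2.10 ± 0.25 SE, adjusted p = 0.0142). Clec4g, a C-type lectin of sinusoidal endothelium, was at 87.0, 87.6 and 70.1 against 314, 345 and 207 (log2 difference -1.80 ± 0.22 SE, adjusted p = 0.0143). General endothelial genes did not pass, with Cdh5 at -0.18, Tie1 at 0.12, Tek at 0.37 and Pecam1 at 0.74. Nor did Emcn (-0.94) and Npr3 (-0.48), whose AVC arrays lay entirely below the LV arrays. Of the 24 list members above background in an E9 group, 10 had AVC arrays entirely below and 5 entirely above. The shares of all such genes were 7.67% and 20.0%. Mmrn2, an endothelial matrix glycoprotein outside the list, fell as well (307, 236 and 218 against 529, 583 and 444; log2 difference -1.04 ± 0.19 SE, adjusted p = 0.0478). The sums of the 7 endothelial markers overlapped, as given above, but those of the 29 list members were lower in the AVC without overlap, at 9825 to 11809.8 against 13265 to 15661. The part of endothelial content in these changes was not tested.

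Several further rises lay outside all of these groups. Rnase4, a secreted ribonuclease, was at 543, 775 and 377 against 118, 78.2 and 76.6 (log2 difference 2.60 ± 0.43 SE, adjusted p = 0.0339), and Serpinf1, a secreted serpin that restrains vessel growth, at 1053, 665 and 601 against 316, 209 and 181 (log2 difference 1.71 ± 0.30 SE, adjusted p = 0.0387). Another detected probe of Serpinf1 had a log2 difference of 0.37. Zcchc18 and Rtl3, on the X chromosome, belong to families derived from retrotransposon gag genes. Zcchc18 was at 187, 211 and 188 against 46.8, 41.1 and 38.0 (log2 difference 2.22 ± 0.32 SE, adjusted p = 0.0237), while Rtl3 was above background on 2 AVC arrays and on no LV array. The adjacent and closely related X-linked genes Nudt10 and Nudt11, which hydrolyse inositol pyrophosphates, rose by 1.10 ± 0.17 and 1.13 ± 0.19, and their probes may share signal. The cytokine inhibitor Socs2 was at 509, 752 and 515 against 221, 259 and 225 (log2 difference 1.31 ± 0.22 SE, adjusted p = 0.0339). Vil1, the actin bundler of microvilli, and Cds1, a lipid synthesis enzyme, were at least 2.32-fold and 2.69-fold higher. At E10 Vil1 was above background on no array of either region, and Cds1 had a log2 difference of 1.99 that did not pass in limma (adjusted p = 0.196).

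The remaining lower genes with large differences were Pxylp1, a phosphatase of glycosaminoglycan assembly (639, 443 and 499 against 1859, 1383 and 1392; log2 difference -1.55 ± 0.20 SE, adjusted p = 0.0173), the secreted leucine-rich protein gene Lgi2 (-1.57 ± 0.24) and Exoc3l (-1.37 ± 0.23). Lrig1, a feedback inhibitor of receptor tyrosine kinases, was at 183, 157 and 153 against 350.3, 387 and 299 (log2 difference -1.07 ± 0.11 SE, adjusted p = 0.00764). Several genes of high intensity passed with small differences, among them Dctpp1, which clears dCTP (3322, 3449 and 3462 against 4435, 4995 and 5015; -0.50 ± 0.08), and the mitochondrial prohibitin gene Phb2 (-0.41 ± 0.07). Higher by little were Cdc16, a subunit of the anaphase-promoting complex (0.29 ± 0.04), and Ssbp3, a partner of LIM-domain complexes (0.54 ± 0.08). Fxyd6, a regulator of the sodium pump, was higher in the AVC, at 3892, 4726 and 3633 against 2361, 1699 and 1918 (log2 difference 1.04 ± 0.18 SE, adjusted p = 0.0386).

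The motif GGTGTGA, the core letters bound by T-box factors, was searched in the same 250-base windows on either strand. It was 1 of 5 motifs searched. It was present for 3 of 18 genes called lower and above background with a promoter in the table (16.7%), for 2 of 118 called higher (1.69%) and for 3.15% of the 7752 genes above background. The 3 lower genes were Nppa, Clec4g and Rapgef5. Their windows are shown as those of the lower genes that held the letters. Capitals mark the motif, as TCACACC where it lies on the other strand, and in Rapgef5, which has 2 listed starts, also a GATA motif AGATAA. With 18 promoters the share rests on 3 genes, and no binding was measured. The other motifs searched were CACCTG, the E-box of Snai and Zeb factors, CACGTG, the E-box of Hes and Hey factors, and AGATAA. Among higher genes CACCTG was held by 16.1% (17.4% of the 7752 genes), CACGTG by 8.47% (10.3%) and AGATAA by 6.78% (7.15%). Of the 18 lower genes 3, 1 and 1 held them, and 3 held GGCGCC.

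Nppa, chr4:148000472-148000721, plus strand: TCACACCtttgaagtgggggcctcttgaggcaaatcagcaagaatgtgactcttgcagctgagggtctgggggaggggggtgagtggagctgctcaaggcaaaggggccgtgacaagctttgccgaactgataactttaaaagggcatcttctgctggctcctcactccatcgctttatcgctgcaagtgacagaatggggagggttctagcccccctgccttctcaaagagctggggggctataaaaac

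Clec4g, chr8:3720652-3720901, minus strand: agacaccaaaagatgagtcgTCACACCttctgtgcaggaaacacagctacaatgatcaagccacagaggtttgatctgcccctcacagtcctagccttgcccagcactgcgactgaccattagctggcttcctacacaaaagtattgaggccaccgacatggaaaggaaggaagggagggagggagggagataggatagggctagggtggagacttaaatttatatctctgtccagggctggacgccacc

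Rapgef5, chr12:117516276-117516525, plus strand: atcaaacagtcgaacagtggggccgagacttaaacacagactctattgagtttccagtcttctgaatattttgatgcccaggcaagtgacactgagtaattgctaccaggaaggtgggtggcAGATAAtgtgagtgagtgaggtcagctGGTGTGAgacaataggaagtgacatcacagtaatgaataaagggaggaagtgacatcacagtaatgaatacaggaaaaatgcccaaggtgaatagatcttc

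The E10 arrays, which shared no sample with the E9 group means, gave a second reading of the same genes. Both tests used the spread estimated over all 4 groups. A gene with little spread passes more easily at both ages, so the numbers that passed are not independent of the E9 calls. There, 438 genes were called (2.30%), 392 higher (2.06%) and 46 lower (0.241%). After quantile normalization the E10 split was 186 higher and 82 lower, and with all arrays at the same median 155 and 63. Of the 115 higher genes above background on all E9 arrays, 113 had a positive difference at E10, 103 had AVC arrays entirely above the LV arrays and 75 passed the test. Among all 9495 genes above background the corresponding shares were 70.0%, 21.3% and 3.61%. Of the 23 lower genes, 23 were negative at E10, 18 had AVC arrays entirely below (3.33% of all) and 10 passed (0.305% of all). None passed in the opposite direction. Among the 105 higher genes outside the AVC lists, 103 kept their sign, 93 had groups that did not overlap and 66 passed. Most genes beyond the known lists thus kept their direction a day later.

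**Figure D5:**
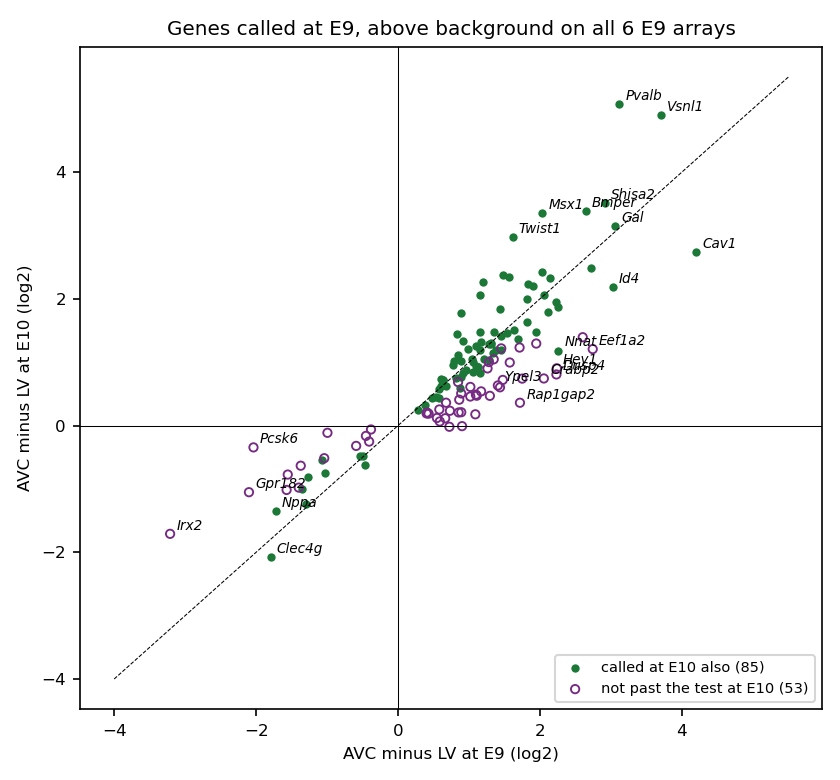
Difference between AVC and LV on the log2 scale at E9 and at E10 for the 138 genes called at E9 and above background on all 6 E9 arrays. Filled points (85) also passed the test at E10 and open points (53) did not; the dashed line marks equal differences. Nearly all points lie in the upper right or lower left quadrant, with Pvalb and Vsnl1 above the line and Cav1, Eef1a2, Hey1 and Irx2 nearer to 0 at E10.

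Among called genes above background on all 6 E9 arrays and outside the AVC lists, the largest E10 values were those of Pvalb (264, 261 and 217 in the canal and 12.1, 3.87 and 8.39, none above background, in the ventricle), Bmper (3.39), Stard10 (2.43), Gata3 (2.37) and Pdgfra (2.35). On the lower side they were Clec4g (-2.08), Col23a1 (-1.24), Gpr182 (-1.05) and Lgi2 (-1.02), with P3h2 at 145, 106 and 128 in the AVC and 253, 271 and 225 in the LV. Tmc7, a transmembrane channel-like gene, had a log2 difference of 1.15 at E9 and 2.06 at E10. Others were smaller at E10 and did not pass there, such as Hey1 (0.90), Dusp4 (0.81), Eef1a2 (1.21), Crabp2 (0.74), Rap1gap2 (0.36) and the 4 cell death genes. Ypel3, for example, was at 2687, 4245 and 3186 in the AVC and 1937, 2776 and 1814 in the LV at E10. The limma test of the difference between ages called 6 genes in all (0.0315%) and did not call any of these (adjusted p = 0.699 for Hey1, 0.666 for Crabp2 and 0.928 for Ypel3), so a change with age is not shown for them.

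Calls near the detection limit were followed separately. Of the 195 genes, 27 were detected by all 3 arrays in neither group, 19 of them called higher and 8 lower. At E10, 16 of the 19 kept their sign, 13 had groups that did not overlap in that direction (13.1% of all genes) and 9 passed, among them Bmp2 and Meox1. Of the 8 lower genes 2 kept their sign, 0 had groups that did not overlap (2.68% of all genes) and 0 passed in limma, although 46 genes passed in that direction. The 8 include the developmental transcription factors Pax7, Nkx3-2 and Otx2, whose highest LV intensities at E9 were 3.97, 7.49 and 31.2. The value for Otx2 exceeded background on 1 LV array, and those for Pax7 and Nkx3-2 lay below the limit on every E9 array.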

How the data were processed

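Total RNA of dissected AVC and ventricle was hybridised to 12 Illumina bead arrays, 3 for each of 4 groups, of which 6 are described here. The intensities deposited by the authors were background subtracted and scaled by them to the same mean on every array, and 34.7% of values lie below 0. The study's methods name GeneSpring GX 11.0 and thresholds of 4-fold and p 0.01. How the scaling was set is not stated.

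Probes were named from the platform annotation. Of 45281 probes, 34885 had 1 gene symbol, 18 several and 10378 none, and for each of 19057 genes the probe with the highest mean over 12 arrays was kept. Intensities under 1 were set to 1 and taken to log2, and limma 3.58.1 in R 4.3.3 fitted all 4 group means, with 8 residual degrees of freedom, eBayes over all probes and Benjamini-Hochberg adjustment over genes, calling an adjusted p under 0.05. All p-values are two-sided and every SE is limma's. Values after a named gene and ± are the log2 difference, AVC minus LV, and its SE. A probe was above background when it exceeded the size of the most negative value on its array. A bound ("at least") sets the mean of the detected group against the background limit in the other. The scripts were tested on simulated data.

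Named genes were the 15 largest positive and 10 largest negative differences among called genes above background on all 6 E9 arrays, the 10 largest bounds, every called list member, the 4 largest differences of a list, the 5 highest and 5 lowest E10 differences among called genes outside the AVC lists, and the 10 called genes of highest mean intensity. The members and lists were chosen with earlier results of these data known. The lists on lysophospholipid, GTPase, cilium and cell death genes were drawn up after the calls were seen. Named outside the rule, after their values were seen, were Rmdn2, Rnf215, Pnmt, Maob, Porcn, Etv1, Gpr85, Lrig1, Mmrn2, Tmc7, Dbn1, Tubb4a, Igsf9, Ctxn1, St8sia2, Nudt10, Nudt11, Rtl3, Pax7, Nkx3-2, Otx2 and relatives of called genes given for contrast. Alternatives were other scalings, floors and probe summaries, array weights, the E9 arrays alone, a replicate block, genes above background alone, the study's thresholds and each E9 or E10 array left out. Promoters were those of RefSeq, GRCm38.p6.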

Additional observations from a re-analysis of the deposited data

Results flagged for a closer look

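The difference between AVC and LV changed with age by limma's interaction test for 6 of 19057 genes (0.0315%), with log2 changes, E10 minus E9, of 4.56 for the ryanodine receptor gene Ryr3, 2.13 for Bpifb9a, 1.87 for Cyp2t4, 1.61 for Olfr1076, -2.92 for Olfr1445 and -3.22 for Crybb2. With Ryr3 on the AVC E10 arrays (49.9, 27.3 and 52.6) as the exception, these genes were at or near the floor of 1 and below background, and 898 of all genes had an unadjusted p under 0.05. When only genes above background were tested, 0 were called by limma and 581 had an unadjusted p under 0.05. Every E9 AVC array lay below every E9 LV array, and at E10 above, for Cdh4 (log2 difference -0.58 at E9 and 0.88 at E10) and Tagln (-0.95 and 0.69). The limma interaction did not pass for either (adjusted p = 0.881 and 0.428). Of 10378 probes with no gene in the annotation used, 40 passed the E9 test, 21 higher and 19 lower, and 15 exceeded background on every E9 array.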

How the results depend on the processing

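The 195 calls at E9 rest on 3 arrays a group. Every one of them kept its direction with any 1 of the 6 arrays left out, which their selection on these same arrays largely fixes. The number passing fell to between 59 and 159 (higher 40 to 123, lower 19 to 36). The E10 count ranged from 97 (without replicate 3 of AVC E10) to 730 (without replicate 1 of LV E10), and the interaction count from 10 to 43. Quantile normalization gave 97 higher and 52 lower genes at E9, 65.1% higher against 83.6%, and 268 at E10. Setting all arrays to the same median gave 108 higher at E9 and 218 at E10, and moved the E10 median of all genes tested from 0.0728 to -0.142 and that of genes above background from 0.178 to -0.0371. Testing only genes above background gave 295 calls, 255 higher, and 0 for the interaction. The E9 arrays alone gave 83 calls (64 higher, 19 lower), of which 37 were among the 195, and 0 in the Notch, TGF-beta, endothelial, lysophospholipid, small GTPase, integrin, metalloprotease, potassium channel, solute carrier and IGF lists. Array weights, lowest for replicate 1 of LV E10 (0.21) and, among the E9 arrays, for replicate 2 of the AVC (0.41), gave 636 (527 and 109), 2143 at E10 and 16 for the interaction. The mean over all probes of a gene gave 276 calls at E10 and turned Rap1gap2 to -0.11. Of the called genes, 57 had another probe above background in an E9 group, and for 3 such a probe had the opposite sign. The study's thresholds, 4-fold and p 0.01, taken here as unadjusted, gave 161 higher and 62 lower genes. A floor of 16 gave 180 calls and log2 of the intensity plus 50 gave 185. With the replicate number as a block, 134 genes were called, 105 higher and 29 lower, 419 at E10 and 3 for the interaction. Deviations of same-numbered arrays correlated at 0.234, 0.0942 and 0.276, each array best with its own number, and nothing in the labels says that a number marks shared material. List medians changed sign for Notch under quantile and same-median scaling. They also did so for calcium and sodium channel, cell death, metabolism and sarcomere genes under same-median scaling, for the channel genes when only genes above background were tested, for small GTPase regulators under array weights and for caveolar genes under the mean over probes. Intensities within the background limit, 22.4 to 29.6, carry no order. The causes of these changes were not tested.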
